A study of Mus musculus with 28 samples.

Results

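MC38 is a mouse colon adenocarcinoma cell line of C57BL/6 origin, and its response to TNF in the presence of interferon gamma (IFNG) was read by setting MC38 cells given TNF and IFNG together against MC38 cells given IFNG without TNF. These groups were chosen by their columns in the in vitro table, 2 libraries each, and make up 4 of the 28 samples of the series and 4 of the 10 libraries of that table. The other in vitro groups were MC38 given TNF alone, untreated MC38, and MC38 given supernatant of a co-culture, again with 2 libraries each. The cytokines were left on the cells for 6 h, and no time is recorded for the supernatant or for the untreated cells. All groups are the same cell line with no genetic change named in the labels, so the comparison is of one tumour line in culture. The labels give no cytokine dose. They also do not state whether the 2 libraries of a group are separate cultures, and p-values therefore reflect only how far these libraries differ, which may be technical.

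TNF is a secreted cytokine of macrophages and T cells that signals through the receptor encoded by Tnfrsf1a. The receptor recruits the adaptor TRADD, the kinase RIPK1, TRAF2 and the ubiquitin ligases BIRC2 and BIRC3, and the IKK kinases then mark inhibitor of kappa B proteins for destruction, which frees the transcription factor NF-kB to enter the nucleus. NF-kB switches on chemokines and adhesion molecules, and also its own inhibitors, which closes the loop. IFNG, the type II interferon of T and NK cells, signals through the kinases JAK1 and JAK2 and induces IRF1, the guanylate-binding GTPases, antigen presentation and the PD1 ligand encoded by Cd274. Together TNF and IFNG are known to act on many of the same inflammatory genes, among them the chemokines that draw T cells.

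RNA was read as QuantSeq 3' libraries, in which each read comes from the 3' end of a transcript. Values are log2 CPM, read counts scaled to a common library total, made even between libraries by quantile normalization, which hides any shift shared by most transcripts. The implied depth, taken from the steps between low values, was 7150000 and 3360000 reads in the TNF + IFNG libraries and 11200000 and 7950000 in the IFNG libraries. The second TNF + IFNG library was the shallowest of the 10. The TNF + IFNG libraries differed from each other by more than 1 log2 unit in 1852 genes (14.6%), against 751 genes (5.90%) for the IFNG libraries. Transcripts encoded in mitochondria made up 3.22% and 3.23% of the signal in TNF + IFNG, the lowest shares of the 10 libraries, and 3.56% and 3.91% in IFNG, and their part in the results was not tested. Of 8 colon epithelial markers, 1 was in the table, Cdh1, which encodes E-cadherin, with 1.71 to 7.86 CPM in TNF + IFNG and 0.259 to 0.649 CPM in IFNG, and Epcam and the keratins were not in it. Of 8 mesenchymal markers, 5 were in the table, led by Vim, summing to 1024 to 1292 CPM in TNF + IFNG and 1111 to 1182 CPM in IFNG. The T cell markers were represented by Lck alone (1 of 13, 0.689 to 5.07 CPM in TNF + IFNG and 0.525 to 0.820 CPM in IFNG), with Cd3e, Cd8a and Ptprc not in the table. Of 8 macrophage markers, 3 were in the table, summing to 3.15 to 3.77 CPM in TNF + IFNG and 4.17 to 10.3 CPM in IFNG. The part of these markers in the results was not tested.

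Of 12720 genes tested, 30 differed between TNF + IFNG and IFNG at an adjusted p under 0.05 (0.236% of genes tested). Of these, 25 rose (0.197%) and 5 fell (0.0393%). The largest rises were those of the chemokines Cxcl1, Cxcl11 and Cxcl9 and the NF-kB inhibitors Nfkbie and Nfkbia, and the fallers were Nectin1, Ier5l, Id2, Osr1 and Midn. Every called change was at least 1.00 on the log2 scale. The TNF + IFNG libraries lay above both IFNG libraries in all 25 risers and below them in all 5 fallers. Such arrangements were seen in 23.2% and 22.7% of genes tested. The calls were made on these same libraries, so the arrangement is no further support for them. Over all genes the median log2 change was -0.03, with 5% of genes below -0.84 and 5% above 0.91. At an unadjusted p under 0.05, 819 genes were higher (6.44%) and 888 were lower (6.98%). The size of the called set depended on which libraries set the spread: 3 genes passed when only these 4 libraries were fitted (Cxcl9, Nfkbia and the gene model Gm9800), against 30 with all 10. Leaving out the first TNF + IFNG library gave 270 calls, 93 higher and 177 lower, and all 30 genes were among them; leaving out any other single library gave 12 to 29.

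**Figure D1:**
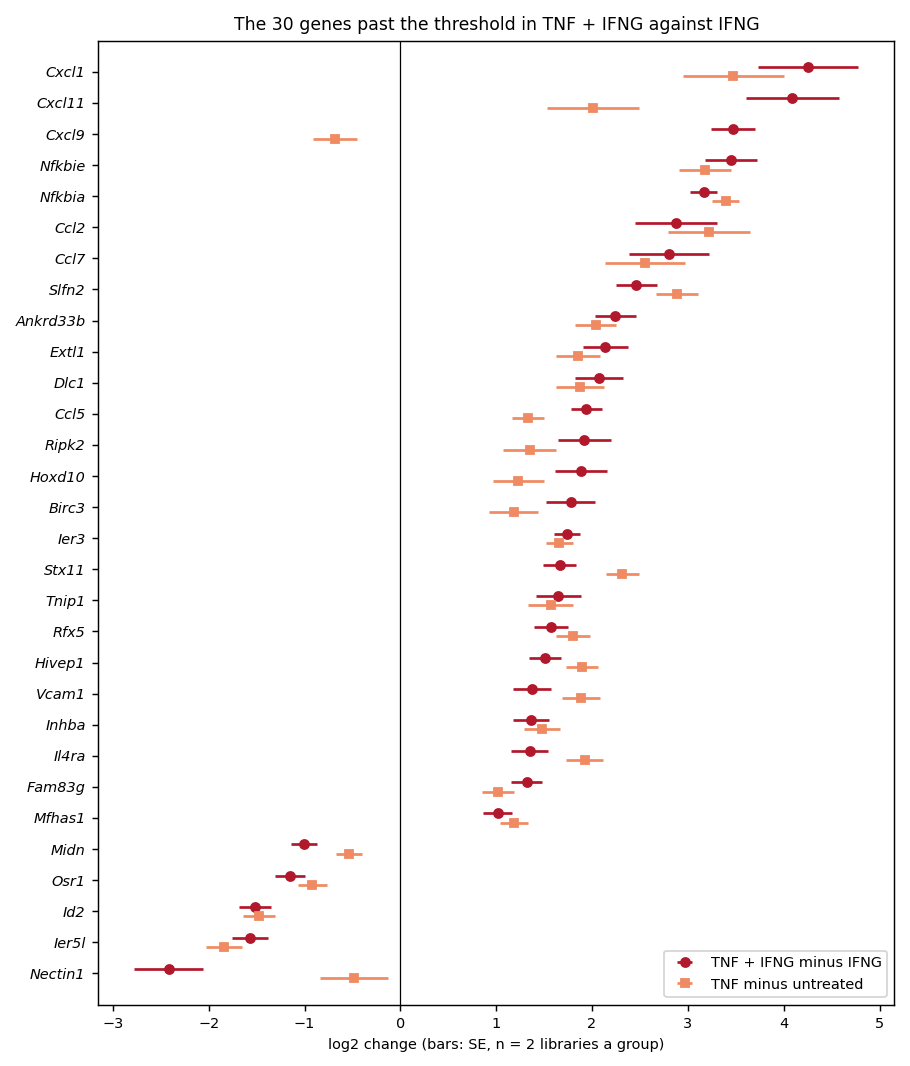
Log2 change of the genes that differed between TNF + IFNG and IFNG (horizontal axis, log2 units, bars are limma's SE, n = 2 libraries each), with the change for TNF against untreated beside each. The 25 genes that rose span 1.01 to 4.25 and the 5 that fell span -2.42 to -1.0, and for most genes the 2 changes lie close together.

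Among the inhibitors that hold NF-kB in check, Nfkbia, Nfkbie and Tnip1 rose. Nfkbia, encoding the classical inhibitor IkB-alpha, read 11.01 and 10.69 log2 CPM in TNF + IFNG and 7.73 and 7.63 log2 CPM in IFNG. The libraries of each group lay close together and the groups were far apart, a log2 change of 3.17 ± 0.14 (SE, n = 2 each; adjusted p = 6.2e-05 by limma with Benjamini-Hochberg adjustment, as for every adjusted p here), or 8.97-fold. Nfkbie, encoding IkB-epsilon, had 5.09 in both TNF + IFNG libraries and 1.90 and 1.38 in the IFNG libraries, on the same scale. Its change was 3.45 ± 0.27 (adjusted p = 0.00221). Tnip1 encodes a protein that works with the ubiquitin-editing enzyme A20 to restrain NF-kB. It had 5.96 and 6.18 log2 CPM in TNF + IFNG and 4.34 and 4.51 log2 CPM in IFNG, a change of 1.65 ± 0.24 (adjusted p = 0.0380).

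Of 12 tested genes in the list of NF-kB inhibitors and feedback regulators, these 3 rose, none fell and 9 did not pass. Over all genes tested 0.197% rose. The median change of the list was 0.80, against -0.03 over all genes. In 8 of the 12 both TNF + IFNG libraries lay above both IFNG libraries, against 23.2% of all genes tested. As the list was chosen with earlier results of these data known, its counts are no independent support. Tnfaip3, which encodes A20 itself, had the largest change of the list, with 1.70 and 2.97 log2 CPM in TNF + IFNG and -2.34 and -0.33 log2 CPM in IFNG. The groups did not overlap, but 1 IFNG library stood on the lowest 3 values of its library, the SE was wide, and the change of 3.68 ± 0.85 did not pass (adjusted p = 0.178). None of the 5 genes of the NF-kB subunits passed, although all 5 had both TNF + IFNG libraries above both IFNG libraries and a median change of 0.72. Relb, a subunit of the alternative pathway, had 6.01 and 5.75 in TNF + IFNG and 4.75 and 4.89 in IFNG (change 1.06 ± 0.17, adjusted p = 0.0749). The changes of Nfkb1 and Nfkb2, the precursors of p50 and p52, were smaller, at 0.45 ± 0.25 and 0.65 ± 0.16 (adjusted p = 0.454 and 0.211). Leaving out 1 library at a time, Nfkbia and Nfkbie kept their calls in all 10 fits. Tnip1 lost its call without the second TNF + IFNG library or any single IFNG, TNF or untreated library, with an adjusted p of up to 0.304.

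The promoters of the 6 largest risers with an entry in RefSeq (build GRCm38.p6) are shown from 250 bases before the start of the gene to 50 bases after it, so that the places of the consensus NF-kB site can be seen in the 3 that hold a match and its absence in the other 3. Capitals mark the matches, which are descriptions of the letters and not measured binding. Cxcl1 (chr5:90890995-90891294, plus strand), Cxcl9 (chr5:92328030-92328329, minus strand), Nfkbie (chr17:45555450-45555749, plus strand), Nfkbia (chr12:55492598-55492897, minus strand), Slfn2 (chr11:83064862-83065161, plus strand) and Ankrd33b (chr15:31367710-31368009, minus strand) read, in the direction of transcription:
Cxcl1: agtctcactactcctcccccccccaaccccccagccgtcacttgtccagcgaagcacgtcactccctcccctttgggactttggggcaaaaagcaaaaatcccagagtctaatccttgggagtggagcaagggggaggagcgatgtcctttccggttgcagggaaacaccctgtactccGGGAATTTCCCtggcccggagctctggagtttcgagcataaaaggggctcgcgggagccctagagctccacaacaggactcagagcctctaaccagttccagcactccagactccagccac
Cxcl9: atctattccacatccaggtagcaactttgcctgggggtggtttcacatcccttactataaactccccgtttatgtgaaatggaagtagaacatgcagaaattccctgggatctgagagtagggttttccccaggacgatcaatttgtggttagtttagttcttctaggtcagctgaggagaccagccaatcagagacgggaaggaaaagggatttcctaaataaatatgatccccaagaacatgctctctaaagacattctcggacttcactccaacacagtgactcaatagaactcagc
Nfkbie: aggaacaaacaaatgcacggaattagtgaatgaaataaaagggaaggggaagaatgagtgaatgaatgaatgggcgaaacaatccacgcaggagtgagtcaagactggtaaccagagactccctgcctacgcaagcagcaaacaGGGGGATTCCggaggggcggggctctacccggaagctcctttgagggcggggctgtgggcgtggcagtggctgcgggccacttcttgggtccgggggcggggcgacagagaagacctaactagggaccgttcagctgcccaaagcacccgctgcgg
Nfkbia: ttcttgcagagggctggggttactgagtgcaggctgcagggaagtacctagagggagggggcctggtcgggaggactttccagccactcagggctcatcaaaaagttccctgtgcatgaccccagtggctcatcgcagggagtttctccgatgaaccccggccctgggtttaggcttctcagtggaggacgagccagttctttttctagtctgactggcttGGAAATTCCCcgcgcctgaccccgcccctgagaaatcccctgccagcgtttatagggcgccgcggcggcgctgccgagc
Slfn2: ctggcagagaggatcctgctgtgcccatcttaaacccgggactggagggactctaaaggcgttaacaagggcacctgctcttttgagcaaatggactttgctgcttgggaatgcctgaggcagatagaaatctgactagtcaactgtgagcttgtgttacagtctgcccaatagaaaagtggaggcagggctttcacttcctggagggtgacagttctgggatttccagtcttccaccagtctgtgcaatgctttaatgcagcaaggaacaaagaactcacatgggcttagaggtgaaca
Ankrd33b: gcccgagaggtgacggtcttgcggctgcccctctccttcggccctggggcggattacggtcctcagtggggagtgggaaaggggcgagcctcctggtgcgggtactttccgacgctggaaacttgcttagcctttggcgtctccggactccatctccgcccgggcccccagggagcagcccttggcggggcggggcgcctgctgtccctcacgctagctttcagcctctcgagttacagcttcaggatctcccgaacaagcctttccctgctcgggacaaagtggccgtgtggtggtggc
The run in Cxcl1 holds overlapping matches on both strands, 71 and 70 bases before the start. The matches lie 106 bases before the start in Nfkbie, on the strand of the gene, and 29 bases before it in Nfkbia, on the opposite strand. The windows of Cxcl9, Slfn2 and Ankrd33b hold no match. Of the 25 risers, 17 had a promoter entry, and 7 of those 17 (41.2%) held the consensus on either strand: Cxcl1, Nfkbie, Nfkbia, Ier3, Tnip1, Hivep1 and Il4ra. The same consensus was in 4.51% of all 32851 windows of this length and in 6.13% of the 8646 tested genes with an entry. None of the 3 fallers with an entry held it. Both strands were searched, a match may overlap another, and these counts carry no test.

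Chemokines had the largest median change of the 26 lists. All 26 were chosen with earlier results of these data known, so neither this rank nor the counts are independent support. Of 9 tested chemokine genes, 6 rose, none fell and 3 did not pass, with a median change of 2.80 against -0.03 over all genes. Over all genes tested 0.197% rose. Cxcl1, the neutrophil attractant that binds CXCR2, had 6.12 and 7.33 log2 CPM in TNF + IFNG and 2.41 and 2.54 log2 CPM in IFNG. The TNF + IFNG libraries differed by more than 1 unit, and both stood well above the IFNG libraries, a change of 4.25 ± 0.52 (adjusted p = 0.0190), or 19.1-fold.

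Cxcl9 and Cxcl10 encode CXCR3 ligands that attract activated T cells, and Cxcl11 is a further gene of this group. They lie next to each other on the minus strand of chromosome 5 in GRCm38 (Cxcl9 at 92321347 to 92328079, Cxcl10 at 92346638 to 92348889, Cxcl11 at 92359544 to 92365485). Cxcl9 had 6.15 and 6.11 log2 CPM in TNF + IFNG and 2.58 and 2.74 log2 CPM in IFNG. Replicates agreed closely, and the change was 3.47 ± 0.23 (adjusted p = 0.000792), or 11.1-fold. Cxcl11 had 5.69 and 4.77 in TNF + IFNG and 1.05 and 1.23 in IFNG, a change of 4.09 ± 0.48 (adjusted p = 0.0164). It is annotated as a polymorphic pseudogene in the reference genome and is overlapped on the opposite strand by Art3. Whether its transcript yields a working ligand in these cells was not tested. Cxcl10 had 8.63 and 9.22 in TNF + IFNG and 7.25 and 7.31 in IFNG, without overlap, but its change of 1.65 ± 0.26 did not pass (adjusted p = 0.0675).

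Among the CC chemokines, Ccl2 and Ccl7, monocyte attractants that bind CCR2, are neighbours on chromosome 11. Ccl2 had 7.99 and 8.70 log2 CPM in TNF + IFNG and 5.64 and 5.30 log2 CPM in IFNG, a change of 2.87 ± 0.43 (adjusted p = 0.0436). Ccl7 was low, with 3.39 and 3.46 in TNF + IFNG and 1.33 and -0.10 in IFNG, and its change was 2.80 ± 0.42 (adjusted p = 0.0436). Ccl5, which attracts T cells, had 7.48 and 7.41 in TNF + IFNG and 5.47 and 5.54 in IFNG. Its change, 1.94 ± 0.16 (adjusted p = 0.00295), was smaller than that of the other 5 and had the smallest SE of the 6. Cxcl9 and Ccl5 kept their calls in every fit that left out 1 library. Cxcl11 lost its call without either IFNG library (adjusted p up to 0.136), Cxcl1 and Ccl2 without the second TNF + IFNG library or any IFNG, TNF or untreated library (up to 0.142 and 0.324), and Ccl7 without the second TNF + IFNG or second IFNG library or any TNF, untreated or supernatant library (up to 0.213), so that the list held 2 to 7 risers over these fits, while Cxcl10 passed without the first TNF + IFNG or either supernatant library.

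**Figure D2:**
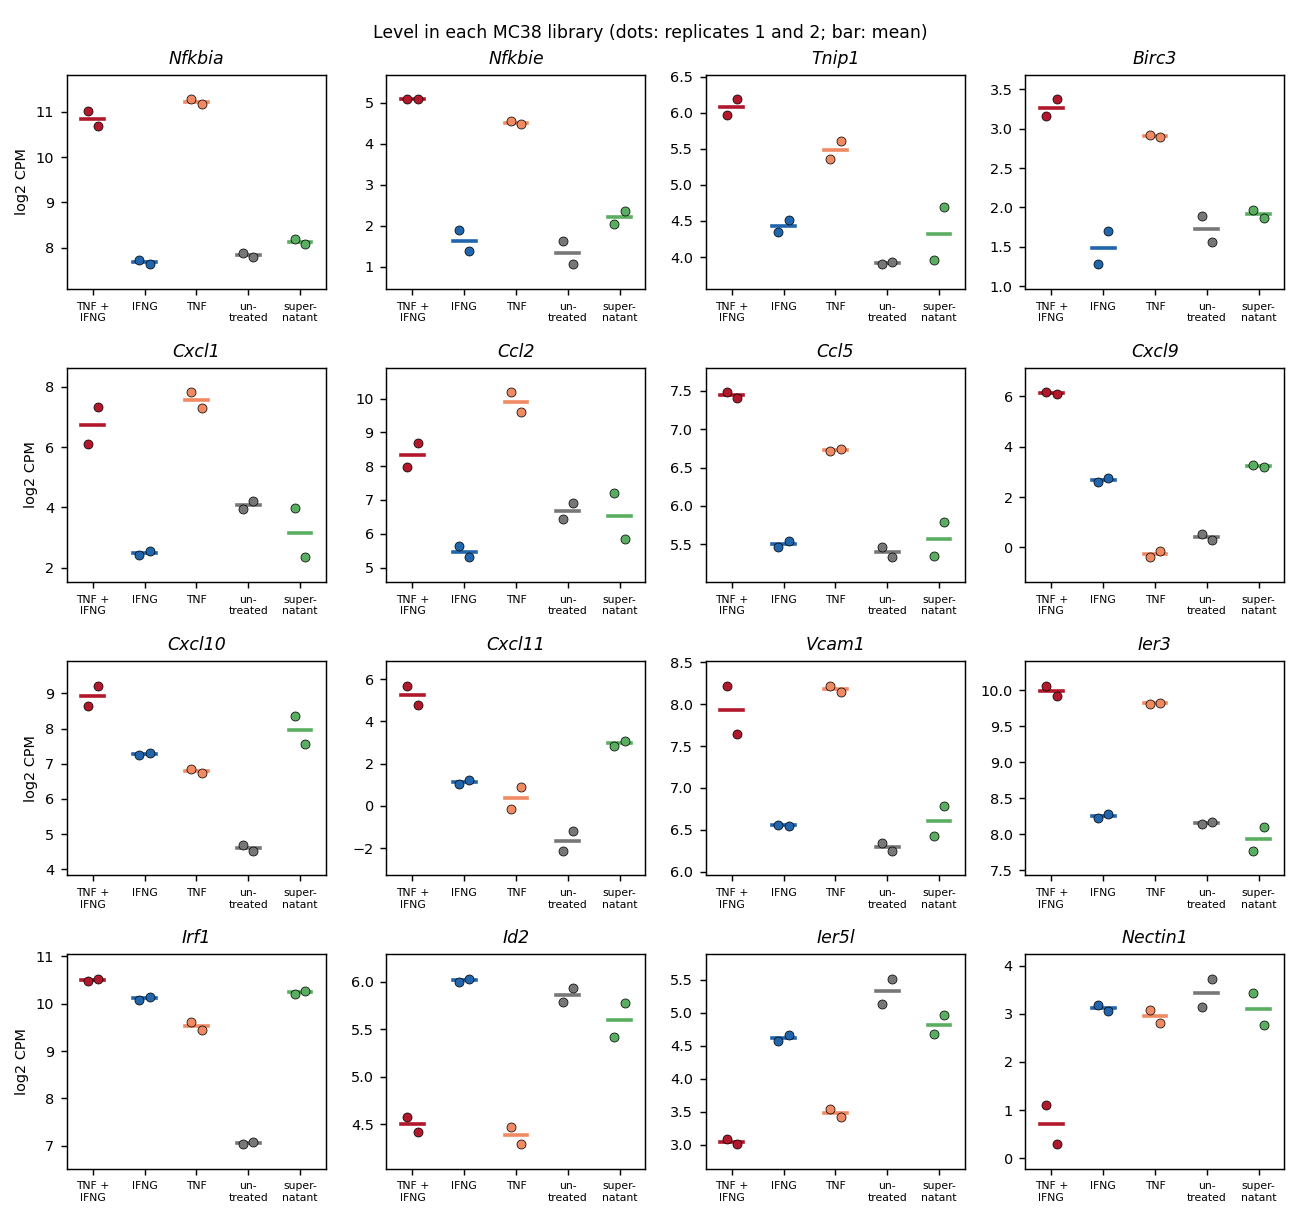
Level of each gene in every in vitro library (vertical axis, log2 CPM; one point per library, n = 2 per group, groups along the horizontal axis). For Nfkbia the TNF + IFNG libraries read 11.01 and 10.69 and the IFNG libraries 7.73 and 7.63, whereas for Irf1 both groups lie between 10.08 and 10.53.

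Of 29 tested genes in the list of further NF-kB targets, 4 rose (Slfn2, Ripk2, Ier3 and Stx11), none fell and 25 did not pass, with a median change of 0.52. In 20 of the 29 both TNF + IFNG libraries lay above both IFNG libraries. Over all genes tested 0.197% rose and 23.2% had this arrangement. The list was chosen with earlier results of these data known, so its counts are no independent support. Slfn2, a Schlafen family gene known for keeping T cells quiescent, had 5.96 and 5.49 log2 CPM in TNF + IFNG and 3.25 and 3.28 log2 CPM in IFNG, a change of 2.46 ± 0.21 (adjusted p = 0.00308). Ier3, an early response gene linked to cell survival, had 10.06 and 9.93 in TNF + IFNG and 8.23 and 8.28 in IFNG, a change of 1.74 ± 0.14 (adjusted p = 0.00221). Both genes were called in every fit that left out 1 library. Ripk2, the kinase that carries signals from the bacterial sensors NOD1 and NOD2, changed by 1.92 ± 0.28 (adjusted p = 0.0380), and Stx11, a syntaxin of vesicle traffic, by 1.66 ± 0.17 (adjusted p = 0.00894). Stx11 lost its call without either IFNG library (up to 0.112), and Ripk2 without the second TNF + IFNG library or any IFNG, TNF or untreated library (up to 0.304). Sod2, the mitochondrial superoxide dismutase often named as an NF-kB target, had 6.12 and 5.47 in TNF + IFNG and 6.03 and 5.97 in IFNG, overlapping groups with a change of -0.20 ± 0.20 (adjusted p = 0.688).

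In the pathway from the TNF receptor to the IKK kinases, 1 of 26 tested genes rose, none fell and 25 did not pass, with a median change of 0.19. Over all genes tested 0.197% rose, and a single gene in a list of this size is not read as a result about the list. The riser was Birc3, a ubiquitin ligase of the receptor complex that protects cells from death by TNF, with 3.15 and 3.37 log2 CPM in TNF + IFNG and 1.28 and 1.70 log2 CPM in IFNG. Its change was 1.78 ± 0.26 (adjusted p = 0.0380), and the call was lost without any single library other than the first TNF + IFNG library (adjusted p up to 0.312). Traf1, a signalling adaptor, had 4.65 and 5.43 in TNF + IFNG and 3.63 and 3.73 in IFNG, and its change of 1.37 ± 0.24 did not pass (adjusted p = 0.0872). Of 8 tested adhesion molecules, 1 rose: Vcam1, which binds the integrin VLA-4 on leukocytes, had 8.21 and 7.64 in TNF + IFNG and 6.56 and 6.55 in IFNG (change 1.37 ± 0.20, adjusted p = 0.0380). The Vcam1 call was lost without any single IFNG, TNF or untreated library (up to 0.281). Icam1, the ligand of the integrin LFA-1, had 1.31 and 1.22 in TNF + IFNG and -1.80 and -3.91 in IFNG. The groups were far apart but the IFNG libraries were low and differed, and the change of 4.12 ± 0.96 did not pass (adjusted p = 0.178). With an offset of 1 on the linear scale the Icam1 change was 1.54 and passed (adjusted p = 0.0469), against an adjusted p of 0.146 to 0.701 when 1 library was left out. No gene of the cytokine list passed among 10 tested (median change 0.85), and 1 did with robust moderation. Lif, the IL-6 family cytokine, had 1.11 and 1.22 in TNF + IFNG and -3.12 and -1.95 in IFNG, with both IFNG libraries on the lowest 3 values, and a change of 3.70 ± 0.68 (adjusted p = 0.0909).

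Of the 30 called genes, 13 were in none of the 26 lists, and 10 of these rose. Ankrd33b, an ankyrin repeat gene, changed by 2.24 ± 0.21 (adjusted p = 0.00558), and Extl1, a glycosyltransferase of the exostosin family, by 2.14 ± 0.23 (adjusted p = 0.0115). Dlc1, which encodes a GTPase-activating protein, changed by 2.07 ± 0.25, and Hoxd10, a homeobox gene, by 1.88 ± 0.27. Rfx5, a subunit of the factor that binds the X box of MHC class II promoters, had 5.16 and 4.94 log2 CPM in TNF + IFNG and 3.52 and 3.44 log2 CPM in IFNG, a change of 1.57 ± 0.18 (adjusted p = 0.0127). Hivep1 encodes a zinc finger protein that binds kappa B sites. It had 4.96 and 5.05 in TNF + IFNG and 3.46 and 3.53 in IFNG, a change of 1.51 ± 0.17 (adjusted p = 0.0121). Inhba, the activin A subunit, changed by 1.36 ± 0.19, and Il4ra, the receptor chain shared by IL-4 and IL-13, by 1.35 ± 0.19. Fam83g and Mfhas1 had the smallest rises, 1.32 ± 0.17 and 1.01 ± 0.15. For all 10 both TNF + IFNG libraries lay above both IFNG libraries, an arrangement seen in 23.2% of all genes tested. The 10 genes were called on these same libraries, so this is no further support for them. Their changes were 0.91 to 2.43 when 1 library was left out. Each of the 10 lost its call in at least 1 of these fits, from Ankrd33b, which did so only without the second IFNG library (adjusted p = 0.0557), to Hoxd10 and Mfhas1, which did so without any library other than the first TNF + IFNG library (up to 0.289 and 0.312).

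Of the 5 genes that fell, only Id2 and Ier5l were in a list, 2 of 22 tested immediate early factors, against 0.0393% of all genes that fell. The lists were chosen with earlier results of these data known, so this count is no independent support for a theme. Id2, an inhibitor of basic helix-loop-helix factors, had 4.57 and 4.42 log2 CPM in TNF + IFNG and 6.00 and 6.03 log2 CPM in IFNG, a change of -1.52 ± 0.17 (adjusted p = 0.0115). Its relatives Id1 and Id3 had changes of -1.27 ± 0.31 and -1.22 ± 0.55 that did not pass (adjusted p = 0.201 and 0.374). Ier5l, an immediate early response gene, had 3.08 and 3.01 in TNF + IFNG and 4.57 and 4.65 in IFNG, a change of -1.56 ± 0.19 (adjusted p = 0.0172). Nectin1, a cell adhesion molecule of adherens junctions, had the largest fall, with 1.11 and 0.30 in TNF + IFNG and 3.19 and 3.06 in IFNG. Its change was -2.42 ± 0.36 (adjusted p = 0.0410). Osr1, a zinc finger transcription factor, changed by -1.15 ± 0.15, and Midn, which encodes midnolin, by -1.0 ± 0.13 (adjusted p = 0.0301 for each). In the median the immediate early list was at 0.36, and no gene of it rose. Id2 lost its call without the second TNF + IFNG library or either IFNG library (up to 0.124), Ier5l without those or either TNF library (up to 0.174), and Nectin1, Osr1 and Midn without those or any untreated library (up to 0.304).

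Lists of interferon genes held no called gene, which is near the background in lists of this size, since 0.236% of all genes were called. None of 17 tested genes of the IFNG receptor, JAK, STAT and SOCS list passed, nor any of 10 interferon regulatory factors, 17 interferon-induced GTPases, 46 interferon-stimulated genes, 19 genes of MHC class I and peptide loading or 8 of the immunoproteasome. The medians of these lists were 0.12, 0.27, 0.21, -0.03, 0.14 and -0.10, in the same order. Of the GTPase genes, 1 passed with robust moderation, with an offset of 1 on the linear scale, and without the first TNF + IFNG library or either TNF library. Without the first TNF + IFNG library 1 interferon-stimulated gene and 2 genes of MHC class I and peptide loading passed too. Irf1, an interferon-induced transcription factor, had 10.47 and 10.53 log2 CPM in TNF + IFNG and 10.08 and 10.15 log2 CPM in IFNG, without overlap, and a change of 0.39 (95% interval 0.12 to 0.66) that did not pass (adjusted p = 0.268). Tap1, the peptide transporter, changed by 0.07 (-0.30 to 0.45), and B2m, the MHC class I light chain, by -0.28 (-0.61 to 0.05).

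H2-K1, a classical MHC class I heavy chain whose reads can be shared with related MHC genes, had 8.81 and 7.97 in TNF + IFNG and 8.99 and 8.84 in IFNG (change -0.53 ± 0.24, adjusted p = 0.373), and passed as a fall only without the first TNF + IFNG library. The GTPase gene with the lowest adjusted p was Gbp2b, with 5.55 and 5.37 in TNF + IFNG and 3.44 and 3.51 in IFNG, a change of 1.98 ± 0.32 (adjusted p = 0.0684); it was singled out after its values were seen. Gbp2 had 6.21 and 6.58 in TNF + IFNG and 5.70 and 5.72 in IFNG, a change of 0.69 ± 0.17 (adjusted p = 0.216). The feedback inhibitors Socs1 and Socs3 had changes of -0.19 ± 0.32 and -0.61 ± 0.56 (adjusted p = 0.828 and 0.665). Among 7 tested checkpoint ligands none passed in the fit of all 10 libraries, which did not hold in every fit with 1 library left out. Cd274, encoding PD-L1, had 4.53 and 4.80 in TNF + IFNG and 4.06 and 4.38 in IFNG, a change of 0.45 with an interval of -0.41 to 1.31 (adjusted p = 0.637).

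Lists of cell death genes held no called gene either, again near the background of 0.236%: none of 16 tested genes of death receptors and apoptosis execution, 10 of the BCL2 family or 8 of pyroptosis and necroptosis passed, with medians of 0.09, 0.14 and -0.17. The death receptor Fas had the largest change among them, with 2.75 and 3.20 log2 CPM in TNF + IFNG and 0.90 and 0.39 log2 CPM in IFNG. The groups did not overlap, and the change of 2.33 ± 0.40 did not pass (adjusted p = 0.0816), but did without the first TNF + IFNG library. Casp8, the initiator caspase of death receptors, changed by -0.03 (interval -0.51 to 0.44), and its sign turned without the first TNF + IFNG library (0.011) or the second IFNG library (0.052). Tnfsf10, which encodes the death ligand TRAIL, changed by 0.51 ± 0.74 (adjusted p = 0.799). Cell cycle, respiratory chain, ribosomal protein, cholesterol synthesis, p53 target, unfolded protein response, redox and MAP kinase phosphatase lists held no called gene, with medians between -0.21 and 0.12. For cholesterol synthesis and p53 targets this did not hold in every fit with 1 library left out. The half-width of the 95% interval of a log2 change had a median of 0.59 over all genes, and no change below 1.00 passed after adjustment.

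**Figure D3:**
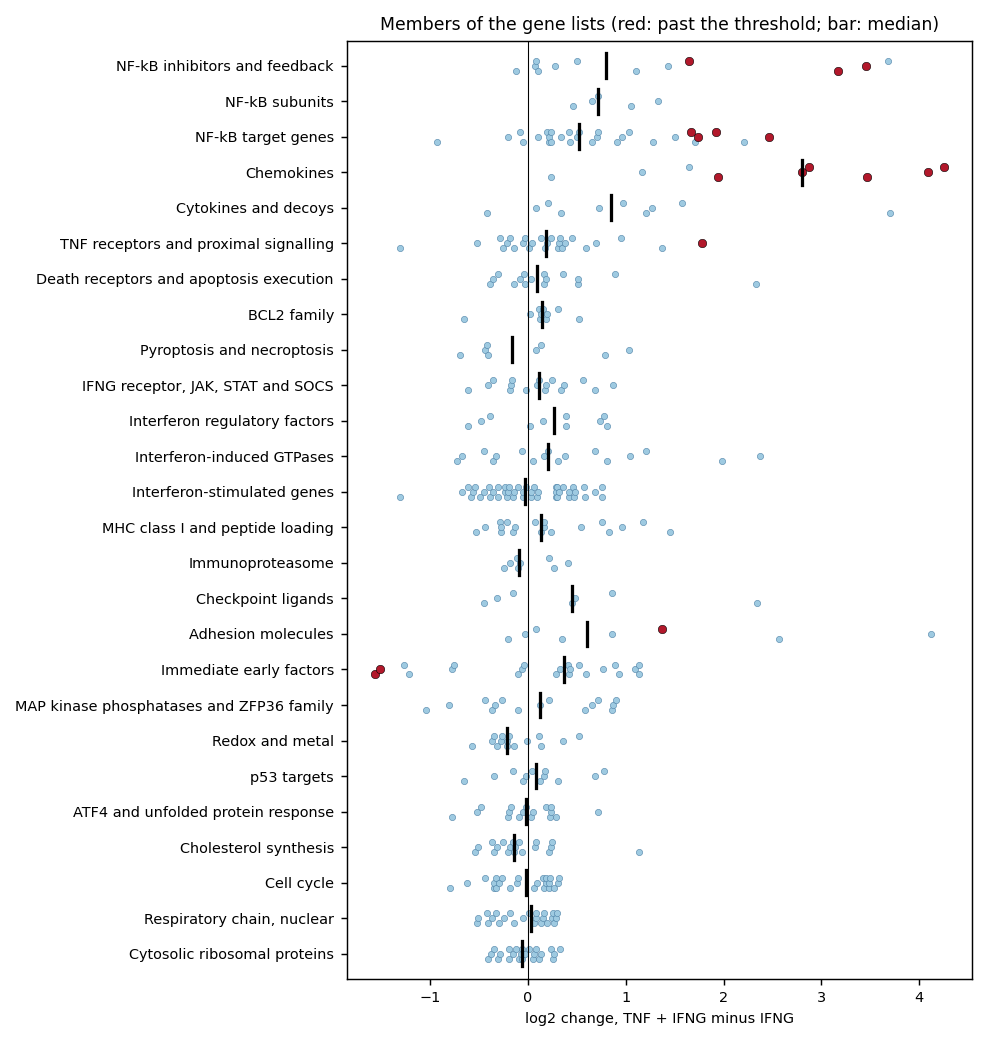
Change of each tested gene by list (horizontal axis, log2 TNF + IFNG minus IFNG; one point per gene, the bar is the list's median, coloured points passed at an adjusted p under 0.05). The chemokine list has a median of 2.80 with 6 of 9 genes called, and the list of interferon-stimulated genes has a median of -0.03 with none of 46 called. Over all genes tested 0.236% were called.

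To see how far the change with TNF depended on IFNG, the same change was read in cells without IFNG. TNF alone against untreated called 35 genes (0.275%), 33 higher (0.259%) and 2 lower (0.0157%). These comparisons share no library, but they share 1 estimate of the spread. Of the genes that rose with TNF on top of IFNG, 18 also rose with TNF alone, 72.0% of the 25 and 54.5% of the 33, and both genes that fell with TNF alone, Id2 and Ier5l, fell on top of IFNG. The 25 risers had a median change of 1.92 on top of IFNG and 1.87 with TNF alone, and 24 of the 25 had both TNF libraries above both untreated libraries, against 21.5% of all genes. In the other direction, all 33 genes that rose with TNF alone had both TNF + IFNG libraries above both IFNG libraries. This arrangement was seen in 23.2% of all genes tested. The 33 had a median change of 1.57 on top of IFNG and 1.89 with TNF alone. Across all 12720 genes, which are not independent of each other, the changes correlated with a Pearson coefficient of 0.228 and a Spearman coefficient of 0.309, given as a description.

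The difference between the TNF changes with and without IFNG was tested directly, and 2 of 12720 genes passed (0.0157%), Cxcl9 and Irf1, while 500 genes had an unadjusted p under 0.05. Cxcl9 had -0.40 and -0.16 log2 CPM in TNF and 0.52 and 0.28 log2 CPM in untreated cells, a change of -0.68 that did not pass (adjusted p = 0.630). Against the change of 3.47 on top of IFNG the difference was 4.15 ± 0.32 (adjusted p = 0.00492). Irf1 went the other way, with 9.60 and 9.44 in TNF and 7.04 and 7.07 in untreated cells, a change of 2.47 (adjusted p = 6.2e-05) against 0.39 on top of IFNG. Its difference was -2.08 ± 0.17 (adjusted p = 0.00492). Irf1 had 10.08 and 10.15 log2 CPM in IFNG, and the part of this level in the difference was not tested. Leaving out the first IFNG or the first untreated library raised the adjusted p of both genes above the threshold (0.0604 and 0.0518), and Irf1 also failed without the second IFNG library (0.0517) and in the fit with no intensity trend (0.0883). For 21 of the 25 risers the 95% interval of the difference spanned 0, with a median half-width over all genes of 0.83 log2 units, so a like change is not shown by it.

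Genes called in one comparison and not in the other had differences that mostly did not pass their own test. Birc3, Ccl7, Cxcl11, Cxcl9, Fam83g, Hoxd10 and Ripk2 rose on top of IFNG and were not called with TNF alone. Of these, Cxcl11 had -0.16 and 0.89 log2 CPM in TNF and -2.12 and -1.18 log2 CPM in untreated cells, a change of 2.01, and its difference of 2.08 ± 0.68 did not pass (adjusted p = 0.962). Conversely, 15 genes were called with TNF alone and not on top of IFNG, among them Cxcl10, Relb, Irf1, Il15, Junb, Gadd45b, Gbp2b and Parp14. Parp14, an interferon-induced ADP-ribosyltransferase named after its values were seen, had 6.50 and 6.46 in TNF + IFNG and 5.72 and 5.73 in IFNG, against 4.49 and 5.13 in TNF and 2.93 and 2.53 in untreated cells. Its changes were 0.76 on top of IFNG and 2.08 with TNF alone, with a difference of -1.32 ± 0.31 (adjusted p = 0.962). Nectin1 read 3.08 and 2.81 in TNF and 3.13 and 3.73 in untreated cells, a change of -0.49 against -2.42 on top of IFNG, and this difference of -1.93 ± 0.50 did not pass (adjusted p = 0.962).

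**Figure D4:**
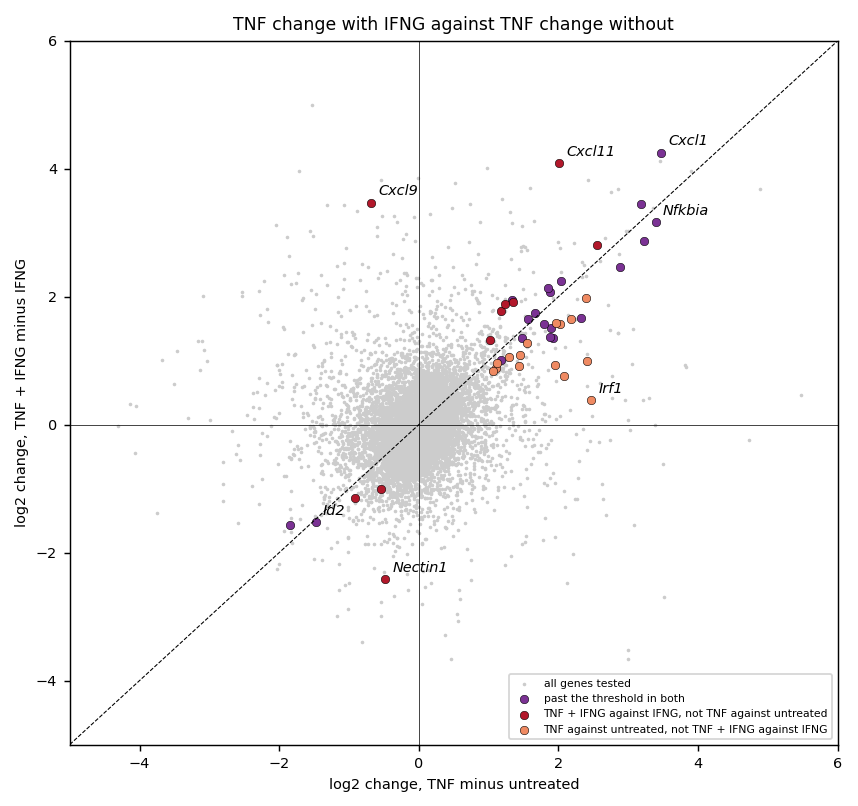
Change with TNF on top of IFNG (vertical axis, log2 TNF + IFNG minus IFNG) against the change with TNF alone (horizontal axis, log2 TNF minus untreated), one point per gene, n = 2 libraries per group. Most called genes lie near the diagonal, Cxcl9 lies far above it (3.47 against -0.68) and Irf1 below it (0.39 against 2.47); 1 gene lies outside the plotted range of -5 to 6.

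The supernatant libraries, whose exposure time is not recorded, are given beside these genes without a test. Of the 25 risers, both supernatant libraries lay below both TNF + IFNG libraries in 25 and above both IFNG libraries in 14. The risers were chosen for high values in these TNF + IFNG libraries, so the first count is largely set by that choice. Neither count is read as a result about the risers. With supernatant, Ier3 (7.78 and 8.11) and Il4ra (4.25 and 4.23) lay below both IFNG libraries (8.23 and 8.28, and 4.65 and 4.82). The faller Midn (6.94 and 6.90) lay above both (6.77 and 6.81). Shares over all genes were not counted. The genes that follow are examples in which supernatant lay between the groups, and are not typical of all. Cxcl10 among them was not called. Cxcl1, the largest riser, did not lie so, with 3.97 and 2.33 with supernatant against 2.41 and 2.54 in IFNG. Nfkbia had 8.19 and 8.08 log2 CPM with supernatant, between TNF + IFNG (11.01 and 10.69) and IFNG (7.73 and 7.63). Cxcl9 had 3.28 and 3.20 with supernatant, above IFNG (2.58 and 2.74) and below TNF + IFNG (6.15 and 6.11). Cxcl10 had 8.34 and 7.57 with supernatant, below TNF + IFNG (8.63 and 9.22) and above IFNG (7.25 and 7.31). Id2 had 5.42 and 5.77 with supernatant, above TNF + IFNG (4.57 and 4.42) and below IFNG (6.00 and 6.03).

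Of the 30 called genes, 12 overlap an annotated gene on the opposite strand (GENCODE M21, GRCm38), among them Cxcl11 with Art3, Ccl2 with Gm17268 and Fam83g with Slc5a10, and no source used here says whether reads were counted by strand. If they were not, reads of the partner cannot be told apart for these genes. On the same strand 2 of the called genes overlap an annotated gene, Ripk2 with Gm22690 and Hoxd10 with Gm28309, and there strand would not separate the reads. The shares of overlap over all genes tested were not counted.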

How the data were processed

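Per the labels' protocols, MC38 RNA (NucleoSpin kit) went into QuantSeq 3' libraries. Per the submitters' processing notes, the tools were cutadapt 1.7, FastQC, HISAT2, Subread, featureCounts and limma, with GRCm38 and mm10 as builds and no settings given. The deposited values are log2 CPM. This was read from the values, which sum to 998481 to 998505 CPM per library on the linear scale and have matching distributions, as quantile normalization leaves them. Depth was implied from the steps between low values.

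Of 12721 genes, 1 was constant and 12720 were tested; a filter of log2 of at least 0 in at least 2 libraries removed 0. Of the names, 15 had been turned into dates and 1 was duplicated, and these are not named. All 10 in vitro libraries were fitted with limma 3.58.1 in R 4.3.3 (group means, empirical Bayes with an intensity trend; 5 residual and 3.74 prior degrees of freedom). P-values are 2-sided, adjusted by the Benjamini-Hochberg method over all tested genes, with a threshold of 0.05. The script was tested on simulated data.

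The comparison, the named genes and the 26 gene lists (494 genes, 421 tested) were chosen with earlier results of these data known. Named are the 15 largest called rises and falls, called list members, genes whose TNF changes differed, and 30 fixed names, of which 29 were in the table and 1 of these is not reported here. Also named, outside that rule and after their values were seen, are the other called genes (Rfx5, Hivep1, Inhba, Il4ra, Fam83g and Mfhas1), uncalled list members (Sod2, Traf1, Lif, Id1, Id3 and Gbp2b) and genes called with TNF alone. The other 18 samples of the series were not analysed here.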

Additional observations from a re-analysis of the deposited data

Results flagged for a closer look

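Cxcl9 and Irf1 were marked because the change with TNF differed between cells with IFNG and cells without it by a test of the difference itself. The Cxcl9 difference was 4.15 on the log2 scale, from 3.47 with IFNG and -0.68 without it (adjusted p = 0.00492). The Irf1 difference was -2.08, from 0.39 with IFNG and 2.47 without it (adjusted p = 0.00492).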

How the results depend on the processing

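Of the 30 calls for TNF + IFNG against IFNG, none reversed under any of 19 alternatives, and Cxcl9 and Nfkbia were called in all of them. The count was 3 with only the compared groups fitted. With the replicate number as a block it was 19, 18 of them shared. Deviations of libraries with the same number correlated at 0.094 for TNF + IFNG with IFNG, -0.064 for TNF with untreated and -0.287 for TNF + IFNG with supernatant. The numbers were therefore not taken to pair the samples. Leaving out 1 library gave 12 to 270 calls, 6 of the 30 genes being called in every such fit. TNF alone against untreated called 35 genes, 61 with only the compared groups fitted, 18 with no intensity trend, 72 with library weights, and 11 to 41 with 1 library left out. The difference of the TNF changes called 2 genes, 1 with no intensity trend, and 0 to 9 with 1 library left out. Uncalled values close to 0 turned sign with 1 library left out: Casp8 ranged from -0.12 to 0.052, Tap1 from -0.063 to 0.21 and Socs1 from -0.57 to 0.19, the sign turning without the first TNF + IFNG library and for Casp8 also without the second IFNG library. The cause was not tested in any of these. With 2 libraries a group, the lone library of a group in a fit that left out its partner is assumed to vary like the other groups. The low-value filter, an offset of 1 on the linear scale, equal library medians and robust moderation gave 27 to 37 calls, no intensity trend 20 and library weights 25. The second TNF + IFNG library is the shallowest, and changes between the lowest 3 values of a library are within counting error.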
